A study of Mus musculus with 70 samples.

Results

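The RNA of 9 chemokine receptors was followed in leukocytes sorted from mouse blood after chronic social defeat stress (CSDS). The genes were Ccr1, Ccr2, Ccr6, Ccr7, Ccr9, Cx3cr1, Cxcr3, Cxcr4 and Cxcr5. They were chosen by name as receptors that blood leukocytes carry, looked up by Ensembl identifier among the 52636 genes of the count table, and all 9 were found. Levels are counts scaled to library size (CPM), normalized with the trimmed mean of M-values (TMM) over the libraries used.

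Chemokines are small secreted proteins that draw leukocytes along a gradient, and their receptors are membrane proteins that signal through inhibitory G proteins. Which receptors a leukocyte carries sets where it can go. CCR2 lets inflammatory monocytes leave the bone marrow and enter tissue, CX3CR1 is carried by monocytes that patrol vessel walls, CCR7 and CXCR5 lead lymphocytes into T cell zones and follicles of lymphoid organs, and CXCR4 retains cells in bone marrow.

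The mice were C57BL/6J, 7 to 8 weeks old. Control (CON) mice were unstressed, whereas susceptible (SUS) and resilient (RES) mice had undergone 10 days of CSDS by a larger CD-1 aggressor and were told apart by a social interaction test on day 11, before collection on day 12. Cells were sorted by surface antigens (CD11b, Ly6C, Ly6G, B220 and CD90.2) into B cells, T cells and monocytes with high or low Ly6C, with 6 libraries per group and cell type, except for 4 CON libraries of Ly6C-low monocytes and 5 RES libraries each of B and T cells. The labels name no mouse, so p-values measure the spread between these libraries, which may be partly technical, and the labels call the source brain where the study describes blood.

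Totals ran from 19769835 to 67038231 counts over the 68 libraries used. The markers of each label were present where they should be: Ly6c2, which encodes the Ly6C antigen, averaged 268.0 CPM in Ly6C-high and 0.689 CPM in Ly6C-low CON libraries, and the summed 7 B cell and 7 T cell markers were at 6495.3 to 6928.2 and 2349.7 to 2682.7 CPM in CON libraries of their own type. Ly6C-low libraries also held natural killer (NK) cell RNA, with a sum of 7 NK markers of 326.6 to 1021.2 CPM in CON. Red cell RNA differed between groups in Ly6C-high monocytes, where the sum of 6 red cell genes ran from 342.7 to 1215.3 CPM in CON, 1097.1 to 8987.4 CPM in SUS and 1077.1 to 4348.1 CPM in RES libraries. Libraries 52 and 70 were left out, because their lymphocyte markers went against their labels: Cd3e was at 412.3 CPM in library 52, labelled as RES B cells, and Cd79a at 1417.1 CPM in library 70, labelled as RES T cells.

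The genes lie on 5 chromosomes of GRCm38, and 5 of them on chromosome 9. Ccr1 (ENSMUSG00000025804, chr9:123962124-123968692, minus strand), Ccr2 (ENSMUSG00000049103, chr9:124101950-124113557, plus strand) and Ccr9 (ENSMUSG00000029530, chr9:123678439-123784330, plus strand) sit within one stretch of it, and Cx3cr1 (ENSMUSG00000052336, chr9:119901616-120069879, minus strand) and Cxcr5 (ENSMUSG00000047880, chr9:44511787-44561877, minus strand) lie apart. Ccr6 is on chromosome 17, Ccr7 on chromosome 11, Cxcr3 on chromosome X and Cxcr4 on chromosome 1. Exons of other genes covered 21.5% of the exon bases of Ccr9, 3.3% of those of Cxcr5 and 1.7% of those of Cx3cr1. Whether counting used strand is not given in the sources used here, so low counts of these 3 genes are uncertain, whereas the other 6 share no exon base with another annotated gene.

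Reference promoters were found for 7 of the 9 genes, all but Ccr7 and Cxcr5. The 250 bases before the start are shown for Ccr1, the receptor whose RNA differed between stressed and control mice, and for Cxcr4, which was measured in every cell type. Sequences are from RefSeq (GRCm38.p6), at chr9:123968693-123968942 and chr1:128592300-128592549, both on the minus strand and written 5′ to 3′, with capitals for the PU.1 core.
Ccr1: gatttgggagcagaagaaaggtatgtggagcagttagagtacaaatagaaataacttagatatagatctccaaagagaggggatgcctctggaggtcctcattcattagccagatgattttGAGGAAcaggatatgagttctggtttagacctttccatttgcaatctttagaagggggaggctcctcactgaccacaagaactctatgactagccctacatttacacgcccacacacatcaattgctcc
Cxcr4: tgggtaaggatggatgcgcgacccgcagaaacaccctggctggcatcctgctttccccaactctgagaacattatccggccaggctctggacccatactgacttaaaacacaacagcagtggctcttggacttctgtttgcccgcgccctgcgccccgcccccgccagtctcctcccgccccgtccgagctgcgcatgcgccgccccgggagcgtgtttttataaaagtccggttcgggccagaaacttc

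The PU.1 core GAGGAA, the site of a myeloid transcription factor, was searched on both strands. It occurred once in the Ccr1 window and not in the Cxcr4 window, and 23.3% of 32851 reference promoters held it in the same length. The core was also present in a window of Ccr6 and in that of Cxcr3, and absent from those of Ccr2, Cx3cr1 and Ccr9. Neither a C/EBP-type motif (TTGCNNAA, in 9.56% of promoters) nor a short glucocorticoid receptor motif (ACANNNTGT, in 5.84%) was found in any member's window, which says only that these letters are not there. In base composition the windows stood apart. Cxcr4 had 61.2% G and C and 19 CG dinucleotides, more than 80.3% of promoters. Ccr1, Ccr2 and 1 window of Ccr6 had 1 CG each against a median of 6.0, and the other Ccr6 window had 7.

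In unstressed mice each cell type had its own set of receptors. Monocytes carried Ccr2, Cx3cr1 and Cxcr4, B cells carried Cxcr5, Ccr7, Cxcr4 and Ccr6, and T cells carried Ccr7 first, with Cxcr4, Cxcr3, Ccr9, Cxcr5 and Ccr2 below it. To compare genes, levels were divided by the length of the merged exons (CPM per kb), and each receptor was given as a share of the sum of all 9. Ccr2 made up 62.5% ± 5.84 (SD, n = 6) of this sum in Ly6C-high monocytes and 15.4% ± 3.94 (n = 4) in Ly6C-low monocytes, where Cx3cr1 led with 57.0% ± 2.72. Cxcr4 made up 6.64% ± 2.12 in the first and, with 25.2% ± 4.03, came before Ccr2 in the second. Ccr7 made up 70.9% ± 4.68 in T cells (n = 6). In B cells Cxcr5 with 36.1% ± 2.93 and Ccr7 with 31.7% ± 1.19 came before Cxcr4 with 23.7% ± 3.27 (n = 6).

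**Figure D1:**
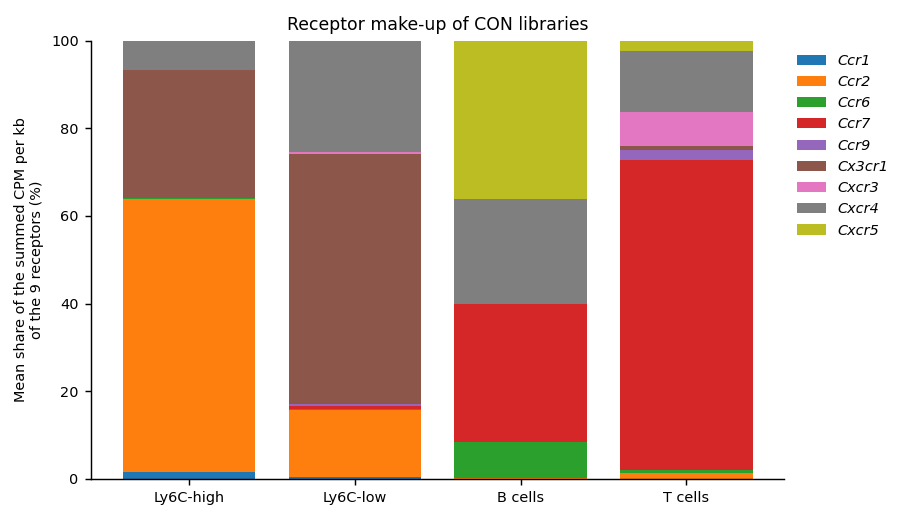
Stacked bars give, for each sorted cell type of CON mice (x axis), the mean share of each receptor in the summed CPM per kb of the 9 receptors (y axis, %). Ccr2 fills 62.5% of the Ly6C-high bar, Cx3cr1 57.0% of the Ly6C-low bar and Ccr7 70.9% of the T cell bar, while the B cell bar is divided among Cxcr5, Ccr7, Cxcr4 and Ccr6.

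Pairs of cell types were also compared among CON libraries. The receptors were chosen as ones that leukocytes carry, with earlier results of these data known, so the counts of calls describe this list only. Calls rest on edgeR's quasi-likelihood test and need both an adjusted p below 0.05 and a log2 fold change beyond 1 in either direction. Of the 54 tests (9 receptors in 6 pairs of cell types), 42 passed. Between Ly6C-high and Ly6C-low monocytes 5 of 9 receptors were called, against 11.2% of all genes tested. Between B and T cells 7 of 9 were called, against 20.2%. Ly6C-high monocytes differed from B cells in 7 and from T cells in 8 of 9 (33.1% and 32.8% of all genes), and Ly6C-low monocytes in 7 and 8 of 9 (30.3% and 28.5%). Between the monocyte subsets Ccr2 was higher, and Cxcr4, Ccr7, Ccr9 and Cxcr5 lower, in Ly6C-high cells.

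Ccr2, the receptor of Ccl2 and Ccl7, was highest in Ly6C-high monocytes, where CON libraries ran from 1476.7 over a median of 2083.2 to 2480.4 CPM. The 4 CON libraries of Ly6C-low monocytes had 336.6, 216.0, 304.7 and 224.8 CPM, so that the subsets did not overlap. The log2 difference was 2.91 (SE 0.48, adjusted p = 0.000159), a fold of 7.54. T cells followed with 7.26 to 40.9 CPM and B cells came last with 0.19 to 3.76 CPM, each step down being called (log2 3.55 from Ly6C-low monocytes to T cells, 3.85 from T to B cells).

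Cx3cr1, the receptor of fractalkine, did not separate the monocyte subsets. CON libraries had 577.3 to 675.9 CPM (median 626.3) in Ly6C-high and 601.8 to 779.0 CPM in Ly6C-low monocytes, with a log2 difference of -0.12 (SE 0.50, adjusted p = 0.932). T cells had 2.08 to 31.3 CPM and B cells 0.248 to 1.45 CPM. In T cells the top value came from library 68, which also had the highest NK marker sum of the CON T cell libraries (295.4 CPM, the others 134.9 to 188.2 CPM), and the part of NK cells in it was not tested.

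Because Ccr2 differed between the monocyte subsets and Cx3cr1 did not, their ratio placed each monocyte library on one side. The log2 ratio of Ccr2 to Cx3cr1 (pseudocount 0.5 CPM) was 1.28 to 2.08 in CON Ly6C-high libraries and -1.85 to -0.88 in CON Ly6C-low libraries. The SUS libraries spread most, from 1.08 to 3.71 in Ly6C-high and -2.51 to -0.44 in Ly6C-low monocytes, and RES libraries had 1.16 to 2.09 and -1.69 to -0.76. No library of any group crossed 0 toward the other subset. In CON libraries this follows from the Ccr2 difference given above. The mark of 0 is arbitrary, because these levels were not divided by exon length.

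Ccr1, a receptor of Ccl3, Ccl5 and Ccl9, was also a monocyte gene but at a far lower level. CON libraries of Ly6C-high monocytes had 14.8 to 26.3 CPM with a median of 19.1, and the 4 CON libraries of Ly6C-low monocytes had 3.86, 1.18, 2.55 and 2.17 CPM. The groups did not overlap, but the log2 difference of 3.02 had an SE of 1.15 and did not pass (adjusted p = 0.0724). This depended on the fit, with adjusted p from 1.52e-06 to 0.117 over the alternatives and from 0.045 to 0.171 with 1 library left out. Lymphocyte libraries had at most 1.74 CPM in CON and some had no count. Ly6C-high monocytes were above B cells by 4.86 and above T cells by 5.95 on the log2 scale, both called. Ly6C-low monocytes were above T cells by 2.93 (SE 1.06, adjusted p = 0.0340), a call lost without any 1 of libraries 21, 29, 32, 56, 62, 65 and 68 (adjusted p up to 0.0856).

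Cxcr4, the receptor of Cxcl12, was the only one of the 9 with more than 40 CPM on average in every cell type. B cells stood first with 126.6 to 240.0 CPM (median 172.4). Ly6C-low monocytes followed with 110.9, 151.9, 93.7 and 124.8 CPM, and the step of 0.52 on the log2 scale (adjusted p = 0.0208) stayed under the fold threshold. T cells with 51.1 to 83.8 CPM and Ly6C-high monocytes with 42.8 to 76.5 CPM did not differ beyond their spread (log2 difference -0.17, SE 0.16, adjusted p = 0.423). Ly6C-low monocytes were above Ly6C-high monocytes by 2.14-fold (log2 -1.10 for high against low, SE 0.18, adjusted p = 3.25e-05), with no overlap. Without library 24 this log2 difference was -0.96, under the fold threshold.

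The lymphoid homing receptors were split between B and T cells. Cxcr5, the receptor of the follicle chemokine Cxcl13, had 447.0 to 542.0 CPM in B cells (median 495.8) against 12.1 to 32.0 CPM in T cells, a log2 difference of 4.57 (SE 0.45, adjusted p = 1.07e-07). Ccr6, the receptor of Ccl20, had 72.9 to 91.2 CPM in B cells against 0.79 to 7.41 CPM in T cells (log2 4.63, SE 0.82, adjusted p = 0.000168). Both genes were thus set well apart between B and T cells with no library in between, and monocyte libraries of CON mice had at most 1.74 CPM of either. The Cxcr5 call between the monocyte subsets rests on such levels (log2 -2.43, SE 0.64, adjusted p = 0.0103), and was lost when these groups alone were fitted (adjusted p = 0.205). The Ccr6 call of Ly6C-low monocytes against T cells (log2 -2.55, adjusted p = 0.0412) was lost without any 1 of libraries 21, 29, 32, 35, 41, 47, 56, 65 and 68 (adjusted p up to 0.101).

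Ccr7, the receptor of Ccl19 and Ccl21, was the one homing receptor that both lymphocyte types carried at a high level. T cells had 320.7 to 388.9 CPM (median 351.5) and B cells 219.1 to 297.2 CPM (median 259.5). Every T cell library was above every B cell library, yet the log2 difference of 0.49 had an SE of 0.33 in the fit of all 4 cell types and did not pass (adjusted p = 0.307), with adjusted p from 0.00035 to 0.346 over the alternatives and from 0.0365 to 0.436 with 1 library left out. Ly6C-low monocytes had 0.941, 12.0, 3.66 and 2.95 CPM, and Ly6C-high monocytes at most 1 count in any CON library.

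Ccr9, which leads cells to the gut and thymus through Ccl25, and Cxcr3, the receptor of the interferon-induced Cxcl9 and Cxcl10, were T cell genes. Ccr9 had 36.4 to 89.7 CPM in T cells (median 60.8) and 1.22 to 6.84 CPM in B cells, 16.9-fold lower (log2 -4.08, adjusted p = 3.16e-09). Cxcr3 had 18.4 to 62.5 CPM in T cells (median 31.9) and 0 to 1.33 CPM in B cells (log2 -7.07 for B against T cells, SE 1.12, adjusted p = 4.79e-05). Among monocytes Ccr9 was higher in Ly6C-low (5.31 to 13.2 CPM) than in Ly6C-high libraries (2.15 to 5.91 CPM), with a log2 of -1.30 for high against low that passed (SE 0.37, adjusted p = 0.0132) but not without library 29 (log2 -1.03, adjusted p = 0.0707). Cxcr3 had 2.23 to 3.46 CPM in Ly6C-low libraries, which also held the NK marker RNA given above, and its part was not tested.

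**Figure D2:**
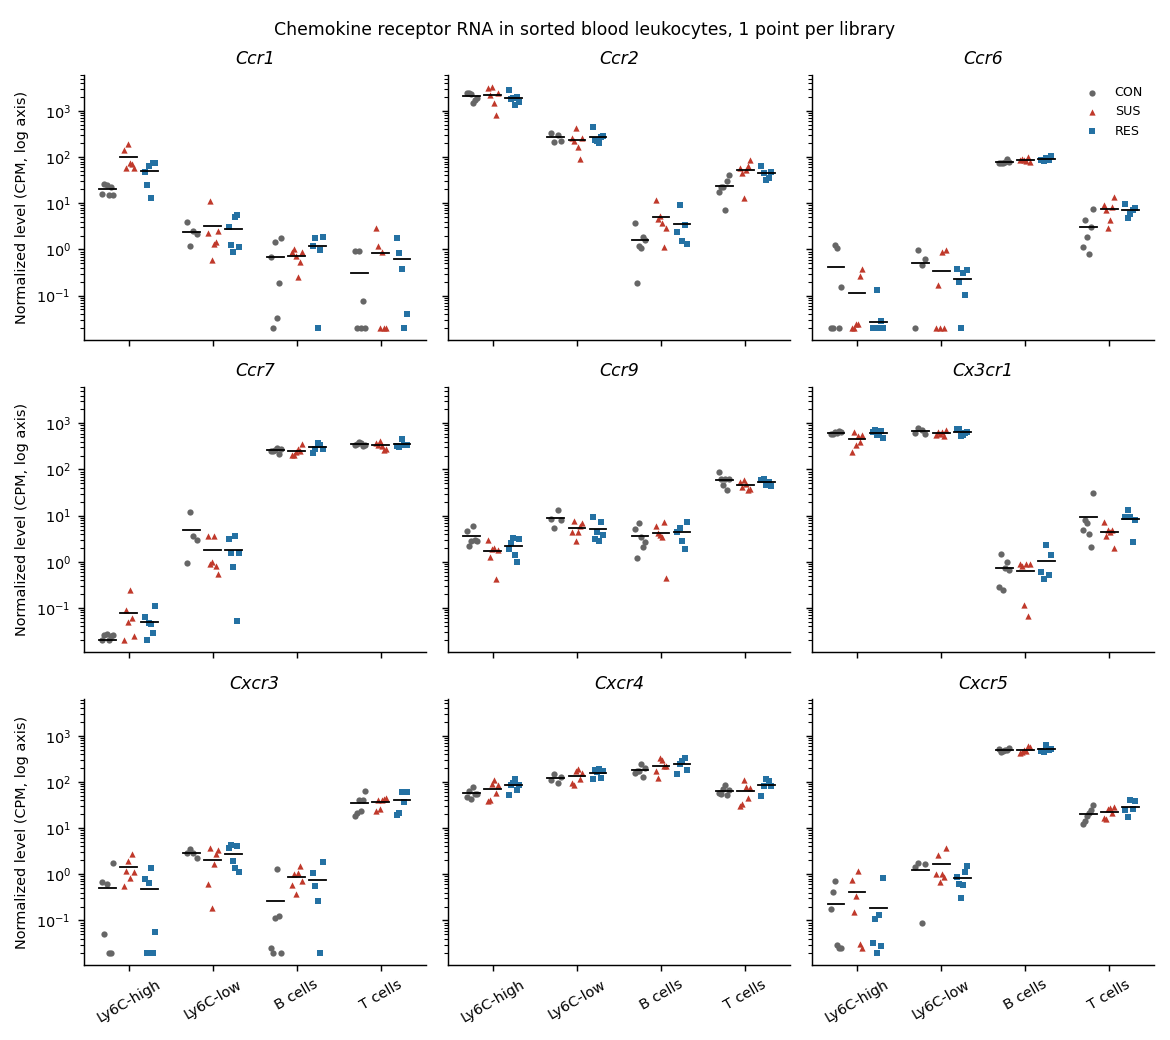
Each panel plots 1 receptor, with the sorted cell type on the x axis and the normalized level in CPM on a log y axis. Points are libraries (CON grey circles, SUS red triangles, RES blue squares), black lines are group means, and values under 0.02 CPM are drawn at 0.02 CPM. Ccr1 in Ly6C-high monocytes is the panel in which all 6 SUS points lie above all 6 CON points.

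The other genes of the pathway were read in the same CON libraries. Among 15 other chemokine receptors, Cmklr1 led in Ly6C-high monocytes (28.3 CPM ± 12.7), and Cxcr6 had 4.78 ± 2.07. Ly6C-low monocytes had Cmklr1 (29.9 ± 9.44) and Ccr3 (8.89 ± 9.40). The 7 eosinophil and basophil markers summed to 0.452 to 48.8 CPM in these Ly6C-low libraries and 0.0255 to 3.08 CPM in Ly6C-high libraries. The part of such cells in Ccr3 was not tested. T cells had Cxcr6 (41.2 ± 4.82) and Ccr4 (8.35 ± 3.54), and the highest in B cells, Cxcr6, Ccrl2 and Ackr2, had 2.23, 1.78 and 1.28 CPM. Between Ly6C-high and Ly6C-low monocytes 0 of 13 tested were higher and 3 lower, and between B and T cells 1 was higher and 6 lower. The shares of all genes called in these pairs were 11.2% and 20.2%.

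The most abundant ligands, Ccl6 and Ccl9, had their highest level in Ly6C-high monocytes. Ccl5 was about as high in T cells as in Ly6C-low monocytes. Ccl6 (834.6 CPM ± 68.7) and Ccl9 (550.0 ± 37.1), both ligands of Ccr1, led in Ly6C-high monocytes before Ccl25 (22.2 ± 5.04). Ccl6 (235.0 ± 33.4), Ccl5 (159.8 ± 83.4) and Ccl9 (103.1 ± 8.79) led in Ly6C-low monocytes. Those libraries also held the NK marker RNA given above, and its part in Ccl5 was not tested. T cells had Ccl5 (161.1 ± 157.7), Ccl25 (13.3 ± 3.11) and the platelet chemokine Ppbp (4.68 ± 1.47), and in B cells the highest, Ccl25, was at 9.45 CPM ± 3.72, before Ppbp (7.81) and Cxcl16 (3.28). Of 17 ligands tested, 9 were higher and 2 lower in Ly6C-high monocytes than in B cells, and 8 were higher and 3 lower than in T cells. The shares of all genes called in these pairs were 33.1% and 32.8%.

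Signalling genes behind the receptors were found in all 4 cell types. Dock2, which activates Rac in moving leukocytes, had 814.6 to 1076.7 CPM on average in all 4 cell types, and Gnai2, the inhibitory G protein subunit, 466.9 to 1118.3 CPM. The third of the leading genes was the receptor kinase Grk2 in Ly6C-high monocytes (462.7 CPM) and B cells (694.1 CPM), the kinase Grk3 in Ly6C-low monocytes (808.5 CPM) and Rac2 in T cells (503.6 CPM). Of 29 tested, 14 were higher and 2 lower in Ly6C-high monocytes than in B cells, and 13 were higher and 3 lower than in T cells. In Ly6C-low monocytes 11 were higher and 2 lower than in B cells, and 12 were higher and 1 lower than in T cells. Between B and T cells 5 were higher and 5 lower, and between Ly6C-high and Ly6C-low monocytes 4 were higher and 3 lower. In the order of these comparisons, 33.1%, 32.8%, 30.3%, 28.5%, 20.2% and 11.2% of all genes were called.

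Among other receptors for movement, the sphingosine phosphate receptor S1pr1, by which lymphocytes leave lymphoid organs, led in T cells (557.1 CPM ± 24.9) and B cells (329.3 ± 26.7). S1pr4 followed with 134.5 and 190.2 CPM, and the third was Gpr183 in T cells (113.0 CPM) and P2ry10 in B cells (139.0 CPM). S1pr5 led in Ly6C-low monocytes (279.0 ± 40.6) before Ptger4 (57.5) and Gpr183 (31.0), and the part of NK cell RNA in S1pr5 was not tested. The platelet-activating factor receptor Ptafr led in Ly6C-high monocytes (108.2 ± 22.6) before Ptger4 (63.3) and Gpr183 (51.6). All 16 were tested, of which 1 was higher and 5 lower in Ly6C-high than Ly6C-low monocytes, where 11.2% of all genes were called.

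Stress was compared within each cell type, SUS and RES mice against the same CON libraries. In Ly6C-high monocytes 7 of the 9 receptors had enough counts to be tested, Ccr6 and Ccr7 being left out by the count filter. Ccr1 was the 1 receptor called in SUS vs. CON mice, where 3.45% of all 16955 genes tested were called, and again in RES vs. CON mice, where 0.997% were. In SUS vs. RES mice 0 of 7 and 0% of all genes were called, with 2 receptors at an unadjusted p under 0.05 and 0 called by DESeq2. Of all genes, 2.28% were called higher and 1.17% lower in SUS than CON mice, and 0.531% higher and 0.466% lower in RES than CON mice. This split moved with scaling, from 387 higher and 198 lower to 296 and 244 in SUS mice, and from 90 and 79 to 61 and 91 in RES mice, when DESeq2's size factors replaced TMM.

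Ccr1 rose in Ly6C-high monocytes of both stressed groups. CON libraries had 14.8 to 26.3 CPM with a median of 19.1, SUS libraries 58.4 to 190.8 CPM with a median of 71.6, and RES libraries 13.3 to 75.7 CPM with a median of 56.1. All 6 SUS libraries were above all 6 CON libraries, while 4 RES libraries were above every CON library, 1 lay among them and 1 was below. The fitted change was 4.80-fold in SUS mice (log2 2.26, SE 0.35, adjusted p = 0.000912) and 2.50-fold in RES mice (log2 1.32, SE 0.34, adjusted p = 0.0310). SUS and RES mice overlapped and did not pass against each other (log2 0.94, SE 0.34, adjusted p = 0.999). In such sorted bulk samples fewer cells of a type and less RNA per cell cannot be told apart.

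The call in SUS mice held with each of 18 libraries left out in turn (log2 1.99 to 2.37, adjusted p 0.000195 to 0.00429), whereas that in RES mice was lost in 8 of 18 (adjusted p up to 0.0939). Red cell RNA moved with it: with the red cell level as a covariate (the 6 genes averaged on the log2 scale), the log2 fold changes of Ccr1 were 2.16 and 1.23, but adjusted p were 0.166 and 0.854. Within the stressed groups the RES library richest in red cell RNA (library 6, 4348.1 CPM) had 24.9 CPM of Ccr1 and the SUS library richest in it (library 14, 8987.4 CPM) had 69.3 CPM. Each of these is a single library, from which no conclusion is drawn. The same covariate ended most calls over all genes in SUS vs. CON mice. It is higher in the stressed groups, so the parts of red cell RNA and of stress in the Ccr1 result cannot be told apart.

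Neutrophils carry Ccr1 as well, so their markers were summed. The sum of 8 neutrophil genes was 363.8 to 836.3 CPM in CON, 522.0 to 1787.7 CPM in SUS and 432.3 to 1207.1 CPM in RES libraries, with overlap. Most of it was Csf3r, which monocytes carry too and which averaged 434.3, 467.5 and 479.3 CPM. The other abundant markers had higher means after stress, with overlapping ranges: S100a8 averaged 23.1, 82.8 and 47.3 CPM, S100a9 55.6, 134.6 and 96.3 CPM, Ngp 100.8, 212.9 and 158.6 CPM and Camp 18.4, 43.6 and 30.9 CPM in CON, SUS and RES libraries. Among the less abundant ones Mmp9 averaged 1.75, 3.34 and 2.65 CPM, whereas Retnlg went the other way with 5.39, 1.08 and 2.4 CPM. Of the 8 genes 7 were tested and 0 called, with a median log2 fold change of 1.03 in SUS and 0.63 in RES mice, beside -0.05 and -0.03 over all genes. Ly6g, whose product was among the antigens stained for the sort, averaged 0.0906, 0.258 and 0.0798 CPM. The part of neutrophil RNA in the Ccr1 result was not tested. Markers of the Ly6C-high subset moved in part with Ccr1: Chil3 rose by 1.31 and Vcan by 1.26 on the log2 scale in SUS mice (adjusted p = 0.000471 and 0.00527), and the other 5 of 7 were not called.

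**Figure D3:**
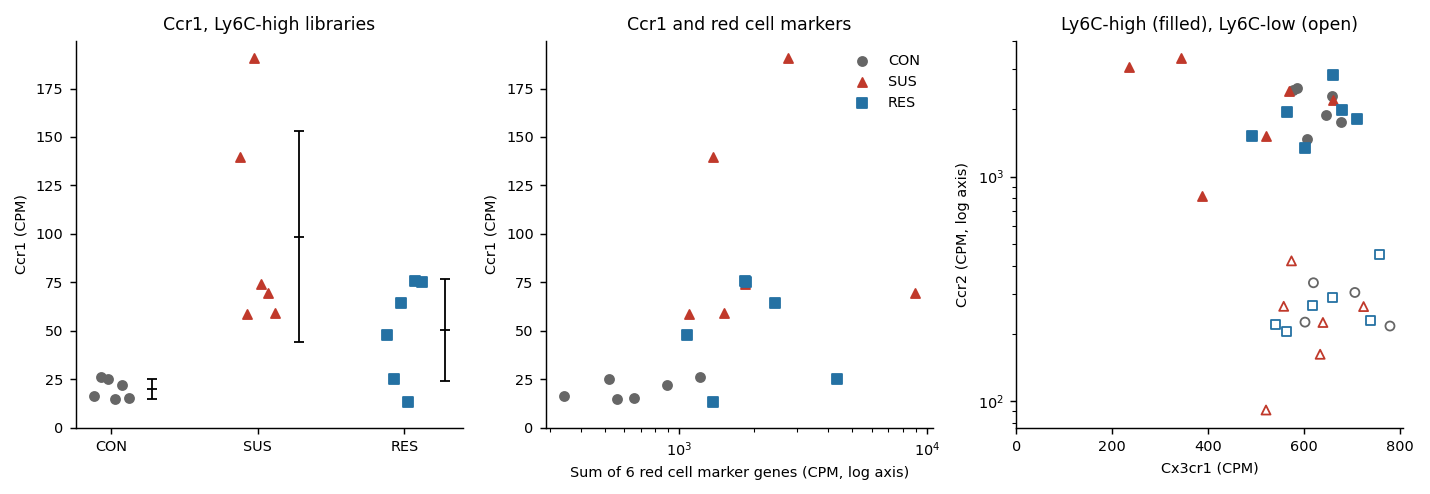
Left, Ccr1 in CPM (y axis) in each Ly6C-high library by group, with mean and SD beside the points. Middle, the same Ccr1 levels against the summed CPM of 6 red cell genes (log x axis). Right, Ccr2 in CPM (log y axis) against Cx3cr1 in CPM for Ly6C-high (filled) and Ly6C-low (open) libraries, colours as on the left. All SUS points for Ccr1 lie at 58.4 CPM or above, the CON points at 26.3 CPM or below, and the monocyte subsets form separate clouds along the Ccr2 axis.

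Ccr2 itself did not pass in Ly6C-high monocytes. Levels were 1476.7 to 2480.4 CPM in CON, 816.9 to 3361.4 CPM (median 2289.4) in SUS and 1345.1 to 2819.3 CPM (median 1871.0) in RES libraries. SUS libraries reached both above and below the CON range. The log2 fold changes were 0.08 (SE 0.24, adjusted p = 0.880) in SUS and -0.12 (SE 0.24, adjusted p = 0.831) in RES mice.

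Cx3cr1 was at 577.3 to 675.9 CPM in CON, 234.0 to 660.4 CPM (median 452.9) in SUS and 491.6 to 710.2 CPM (median 630.3) in RES libraries of Ly6C-high monocytes. In SUS mice, 5 of 6 libraries lay below every CON library. The log2 fold change in SUS mice was -0.50 (SE 0.18, adjusted p = 0.0662), and under the alternatives the adjusted p ran from 0.0127 to 0.766 with the fold always under the threshold. The libraries with the lowest Cx3cr1, libraries 2 and 8 at 234.0 and 342.2 CPM, were those with the most Ccr1 and with the most Ccr2 (3061.1 and 3361.4 CPM). The next lowest, library 14 at 386.1 CPM, had 69.3 CPM of Ccr1 and the least Ccr2 (816.9 CPM).

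The other receptors of Ly6C-high monocytes were not called. Cxcr4 had 42.8 to 76.5 CPM in CON, 39.5 to 109.0 CPM in SUS and 53.2 to 113.3 CPM in RES libraries (log2 0.26 and 0.55, adjusted p = 0.496 and 0.145). Ccr9 had 2.15 to 5.91, 0.422 to 2.97 and 1.00 to 3.26 CPM (log2 -1.09 and -0.71, adjusted p = 0.170 and 0.455). Plasmacytoid dendritic cells carry Ccr9, and the sum of their 8 markers was 133.5 to 185.0 CPM in CON, 96.0 to 140.3 CPM in SUS and 85.2 to 158.4 CPM in RES libraries, with 5 of the 8 averaging under 1 CPM in each group, so that its part was not tested. Cxcr3 and Cxcr5 stayed at or below 2.80 and 1.15 CPM in every library.

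No receptor was called in the other cell types, that is in Ly6C-low monocytes and in both kinds of lymphocyte. Over the 54 tests of SUS or RES vs. CON mice in these cell types, 9 had an unadjusted p under 0.05 and the lowest adjusted p was 0.458. The 9 were 1 in Ly6C-low monocytes (RES), 1 each for SUS and RES in B cells and 3 each in T cells. Of all genes, 9.51% (SUS) and 9.67% (RES) had such a p in Ly6C-low monocytes, 3.42% and 3.18% in B cells and 4.80% and 4.11% in T cells. DESeq2 called 0, but gave no adjusted p for 6 of the 9 receptors in Ly6C-low monocytes of RES mice. Past both thresholds were 0.0871% (SUS) and 0.0154% (RES) of all genes in Ly6C-low monocytes, 0.00568% and 0% in B cells and 0.0265% and 0% in T cells. SUS vs. RES mice gave 0% of all genes, and 0 receptors at an unadjusted p under 0.05, in each of the 3 cell types.

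**Figure D4:**
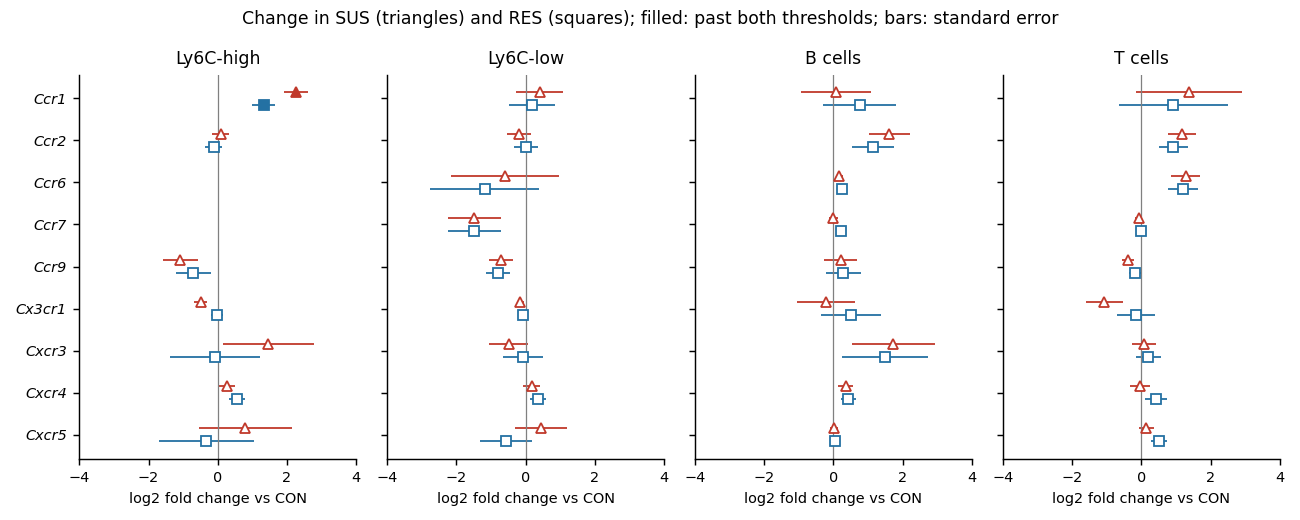
Log2 fold changes from edgeR (x axis) of each receptor (y axis) in SUS (red triangles) and RES (blue squares) against CON mice, 1 panel per cell type. Bars are standard errors and filled symbols passed both thresholds. The filled symbols are Ccr1 in Ly6C-high monocytes, at 2.26 and 1.32, and Ccr6 and Ccr7 were not tested there.

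In Ly6C-low monocytes the levels of the monocyte receptors overlapped among the groups. Ccr2 had 91.3 to 421.3 CPM (median 243.9) in SUS and 204.7 to 448.0 CPM (median 247.5) in RES against 216.0 to 336.6 CPM in CON libraries. Cx3cr1 had 520.5 to 724.0 CPM in SUS and 540.9 to 756.6 CPM in RES against 601.8 to 779.0 CPM in CON libraries. Ccr1 had 0.585 to 11.3 CPM in SUS and 0.900 to 5.50 CPM in RES against 1.18 to 3.86 CPM in CON libraries, with 1 SUS library far above the rest.

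Ccr7 and Ccr9 had lower means in Ly6C-low monocytes of stressed mice without passing. Ccr7 averaged 4.88 CPM ± 4.86 in CON (n = 4), 1.76 ± 1.48 in SUS and 1.78 ± 1.37 in RES libraries (n = 6 each), and the CON mean rested on library 24 with 12.0 CPM. Ccr9 averaged 8.73 CPM ± 3.30, 5.33 ± 1.76 and 5.15 ± 2.67, with a log2 fold change of -0.79 in RES mice (SE 0.35, adjusted p = 0.458). Markers of conventional dendritic cells, which carry Ccr7, had lower medians as well. The sum of the 6 markers was 130.3 to 345.2 CPM in CON, 44.4 to 155.5 CPM in SUS and 74.0 to 237.1 CPM in RES libraries, and library 24 had the lowest CON sum. Their median log2 fold change was -1.22 in SUS and -0.61 in RES mice, beside -0.01 over all genes. Zbtb46, a transcription factor of these cells, fell from a mean of 31.9 to 16.0 CPM in SUS mice (log2 -1.0, SE 0.20, adjusted p = 0.0260), a call lost without any 1 of libraries 19, 21, 23, 25, 27, 29, 30, 32 and 33 (adjusted p up to 0.133). The other 5 were not called, and the part of dendritic cells in the Ccr7 means was not tested. Cxcr4 had 84.8 to 195.2 CPM in SUS and 115.0 to 191.4 CPM in RES against 93.7 to 151.9 CPM in CON libraries.

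In T cells Ccr2 and Ccr6, receptors of effector and Th17 cells, had higher means after stress, with overlapping groups and no call. Ccr2 had 7.26 to 40.9 CPM (median 22.2) in CON, 12.7 to 88.0 CPM (median 55.2) in SUS and 31.3 to 63.6 CPM (median 44.3) in RES libraries. In SUS mice 5 of 6 and in RES mice 3 of 5 libraries were above every CON library (log2 1.18 and 0.93, SE 0.41 and 0.43, adjusted p = 0.683 and 1.00). Ccr6 had 0.790 to 7.41 CPM in CON, 2.97 to 13.4 CPM in SUS and 4.77 to 9.81 CPM in RES libraries (log2 1.28 and 1.20, SE 0.42 and 0.44, adjusted p = 0.505 and 0.917). The NK marker sum of these libraries overlapped among the groups, at 134.9 to 295.4 CPM in CON, 123.4 to 214.9 CPM in SUS and 107.5 to 215.1 CPM in RES. Markers of Ly6C-high monocytes, in which Ccr2 is at 1476.7 CPM or above in CON libraries, had higher means in stressed mice. Chil3 averaged 2.86, 13.3 and 5.23 CPM, F13a1 3.04, 8.70 and 6.82 CPM and Fn1 12.0, 33.1 and 27.4 CPM in CON, SUS and RES libraries, with overlapping ranges. An exception was Mgst1, which had a lower mean in RES (0.26 CPM) than in CON libraries (0.445 CPM). None of the 7 was called, with a median log2 fold change of 1.45 in SUS and 0.87 in RES mice. Ccr6 averaged 0.414, 0.116 and 0.0263 CPM in the CON, SUS and RES libraries of Ly6C-high monocytes. The part of either cell type in the Ccr2 and Ccr6 means of T cells was not tested.

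The other receptors of T cells overlapped among the groups. Ccr7 had 263.6 to 421.7 CPM in SUS and 302.1 to 465.4 CPM in RES against 320.7 to 388.9 CPM in CON libraries. Ccr9 had 36.5 to 60.2 CPM in SUS and 44.3 to 62.3 CPM in RES against 36.4 to 89.7 CPM in CON libraries (log2 -0.38 in SUS, SE 0.17, adjusted p = 0.898). Cxcr3 averaged 34.5 CPM ± 16.8, 36.5 ± 9.11 and 39.8 ± 20.5 in CON, SUS and RES libraries, and Cxcr5 20.5 ± 7.23, 22.7 ± 5.32 and 29.0 ± 9.54. Cxcr4 averaged 63.7 ± 12.0, 62.3 ± 31.8 and 86.2 ± 24.0 CPM.

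In B cells the levels of the leading receptors overlapped among the groups. Cxcr5 averaged 494.9 CPM ± 31.7 in CON (n = 6), 497.6 ± 67.9 in SUS (n = 6) and 509.3 ± 79.4 in RES libraries (n = 5), and Ccr7 259.2 ± 26.2, 256.0 ± 53.7 and 299.5 ± 58.7. Ccr6 had 72.9 to 91.2 CPM in CON, 77.2 to 99.7 CPM in SUS and 82.6 to 104.0 CPM in RES libraries, with a log2 fold change of 0.24 in RES mice (SE 0.11, adjusted p = 1.00). Cxcr4 averaged 178.2 ± 39.9, 226.7 ± 77.2 and 239.1 ± 76.4 CPM (log2 0.35 and 0.43, SE 0.21 and 0.22, adjusted p = 0.999 and 1.00).

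Ccr2 in B cells was low but not even. CON libraries had 0.190 to 3.76 CPM, SUS libraries 1.14 to 12.0 CPM and RES libraries 1.28 to 9.30 CPM (log2 1.61 in SUS, SE 0.59, adjusted p = 0.999). NK markers moved with it: their sum was 3.18 to 7.96 CPM in CON, 15.7 to 43.6 CPM in SUS and 10.3 to 24.5 CPM in RES libraries, and library 36 had the highest value of both, 12.0 CPM of Ccr2 and 43.6 CPM of NK markers. Of the 7 NK markers 0 were called, with a median log2 fold change of 2.38 in SUS and 1.98 in RES mice. Some markers of Ly6C-high monocytes also had higher means in stressed mice: Chil3 averaged 1.28, 6.40 and 3.83 CPM, F13a1 2.86, 5.33 and 5.04 CPM and Fn1 8.17, 16.7 and 20.6 CPM in CON, SUS and RES libraries. Mgst1 went the other way with 2.22, 0.579 and 1.34 CPM, and Ly6c2 averaged 2.18, 3.39 and 2.21 CPM. Of the 7 monocyte markers 0 were called (median log2 0.90 and 0.14). The part of both cell types in the difference was not tested.

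Whether a receptor changed more in Ly6C-high monocytes than in another cell type was tested as an interaction in a fit of all 12 groups. No receptor passed an adjusted p of 0.05 in any of the 6 interactions, with 6 of 54 tests at an unadjusted p under 0.05 and 1 called by DESeq2. Against the Ly6C-low subset, B cells and then T cells, 0.363%, 6.18% and 3.22% of all genes passed for SUS vs. CON mice and 0.099%, 1.65% and 0.713% for RES vs. CON mice. The Ccr1 change in SUS mice was larger in Ly6C-high than Ly6C-low monocytes by 1.88 on the log2 scale (SE 1.18, adjusted p = 0.510), than B cells by 2.25 (SE 1.20, adjusted p = 0.273) and than T cells by 0.92 (SE 1.23, adjusted p = 0.797). Levels of 0 to 11.3 CPM in those cells left wide errors, and the call in Ly6C-high monocytes is therefore not shown to be particular to them.

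Other genes of the pathway were counted from 4 lists. In Ly6C-high monocytes of SUS mice 1 of 15 ligands and 2 of 15 other chemoattractant receptors rose, and 1 ligand and 1 of 27 signalling genes fell. The medians of these lists were 0.06, 0.39 and, for signalling, 0.08 on the log2 scale, and that of 9 other chemokine receptors was 0.34, beside -0.05 over all genes tested. In RES mice 1 chemoattractant receptor rose and 1 ligand fell, and in SUS vs. RES mice 0 of 66 tests passed, with 5 at an unadjusted p under 0.05 and 0 by DESeq2. The shares of all genes called were 3.45% in SUS vs. CON and 0.997% in RES vs. CON mice.

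The chemoattractant receptors that rose in SUS mice were C5ar1 and Fpr1. C5ar1, the receptor of complement C5a, had 5.61 to 16.2 CPM in CON, 22.3 to 54.1 CPM in SUS and 10.3 to 48.7 CPM in RES libraries (log2 1.71 and 1.28, adjusted p = 0.00168 and 0.0240), with SUS and CON apart. The call in RES mice was lost without any 1 of libraries 1, 7, 9, 15 and 18 (adjusted p up to 0.0731). Fpr1, the formyl peptide receptor, had 1.15 to 5.69 CPM in CON and 3.83 to 22.3 CPM in SUS libraries (log2 2.20, SE 0.46, adjusted p = 0.00350). With the red cell covariate neither passed in SUS mice (log2 1.26 and 1.68, adjusted p = 0.315 and 0.412).

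Among the others, Cxcl10, the interferon-induced ligand of Cxcr3, fell from 8.28 to 10.8 CPM in CON to 0.166 to 5.35 CPM in SUS libraries (log2 -2.08, SE 0.56, adjusted p = 0.0165). The kinase Grk3 fell from 164.4 to 220.3 CPM to 60.6 to 132.8 CPM (log2 -1.05, SE 0.18, adjusted p = 0.00145). Both were without overlap between the groups. The fold of Grk3 was just past its threshold, and without any 1 of libraries 2, 8, 14 and 16 it was not (log2 -0.97 to -0.98). Ppbp rose from a mean of 1.02 to 5.05 CPM (log2 2.31, SE 0.70, adjusted p = 0.0326), but not without any 1 of libraries 1, 7, 8 and 14 (adjusted p up to 0.153). With the red cell covariate Cxcl10, Grk3 and Ppbp had log2 fold changes of -2.17, -0.74 and 1.08 and did not pass (adjusted p = 0.442, 0.290 and 0.844). The 7 platelet markers, of which it is 1, summed to 6.14 to 11.0 CPM in CON and 5.95 to 52.8 CPM in SUS libraries. Ccl17 was called in RES mice, where all 6 libraries had 0 counts against 0 to 138 counts in CON libraries, 3 of which were also at 0, so that no fold is given. That call was lost in 16 of 18 fits with 1 library left out (adjusted p up to 0.117). The sum of the 6 conventional dendritic cell markers was also lower in SUS mice, at 71.9 to 124.9 CPM against 156.6 to 208.0 CPM in CON libraries. Only Cd209a was called, lower by a log2 of 3.30 (adjusted p = 0.00144), with means of 54.5 CPM in CON and 5.67 CPM in SUS libraries. Flt3, Zbtb46 and Clec9a had lower means without a call. Clec10a averaged 24.4 and 23.1 CPM and Batf3 13.5 and 13.6 CPM in CON and SUS libraries.

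In the other cell types 0 of 567 tests of the same lists passed over the 3 comparisons. At an unadjusted p under 0.05 there were 47, and DESeq2 called 4. List genes with an unadjusted p under 0.05 made up 25.0% of those tested for SUS against CON mice in Ly6C-low monocytes and 16.7% for RES mice, where 9.51% and 9.67% of all genes did. In B cells they made up 5.66% and 1.89% (3.42% and 3.18% of all genes), and in T cells 3.12% and 4.69% (4.80% and 4.11% of all genes).

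Genes with the pattern most like each receptor were found by Pearson correlation of log2(CPM + 0.5) over the 68 libraries, among 17826 genes with at least 1 CPM on average in some group. These are descriptions, since libraries of 1 cell type share its program and no p is given. Closest to Ccr1 were the inflammatory monocyte genes Chil3 (r = 0.936) and F13a1 (0.934), to Ccr2 Tiam1 and Vwa5a (both 0.968) and to Cx3cr1 Tnfrsf1b (0.983) and Klf10 (0.982). Closest to Ccr6 were Cxcr5 and Il9r (both 0.970), and to Cxcr5 Bend5 (0.981) and Il9r (0.977). Ccr7 went with Dtx1 (0.982) and Chst10 (0.980), Ccr9 with the T cell genes Lat (0.932) and Cd27 (0.928) and Cxcr3 with Cd96 (0.941) and Cyp2s1 (0.934). Cxcr4 had no partner as close, Btg2 and Polr2a coming first with 0.850 and 0.834.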

How the data were processed

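RNA of leukocytes sorted by flow cytometry was sequenced with a stranded total RNA kit. Per the labels and the study's methods, the authors aligned reads to mm10 with HISAT2 and counted them per gene with HTSeq, and deposited the raw counts of 70 libraries. Cell type and group came from the labels, and days, strain and age from the study's methods. Symbols, positions and exon lengths came from GENCODE M21 (52489 of 52636 genes matched). Libraries 52 and 70 were left out.

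Counts were filtered with filterByExpr, normalized with TMM and fitted with edgeR 4.0.16 (R 4.3.3, limma 3.58.1), all groups of a cell type together, the CON libraries of all cell types for cell type comparisons, and all 12 groups for interactions. The quasi-likelihood test was used, with Benjamini-Hochberg adjustment over all genes tested. Calls needed an adjusted p below 0.05 together with a log2 fold change beyond 1 in either direction, or the adjusted p alone for interactions. Standard errors were derived from the fold change and its F statistic. The fit was tested on simulated data. Alternatives were DESeq2 1.42.0, its size factors, no count filter, fewer groups in the fit, the adjusted p alone, libraries 52 and 70 kept, abundant non-informative genes removed, a red cell covariate and each library left out in turn. Total counts of 19769835 to 67038231 per library leave errors set by the spread between libraries, and counts cover reads, which need not be separate molecules.

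All 9 receptors are named. Of the lists of related genes, those called within a cell type and the 3 highest per cell type are named, except for 1 gene that is not reported here. The receptors, lists and tests were chosen with earlier results of these data known.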

Additional observations from a re-analysis of the deposited data

Results flagged for a closer look

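Of 83 groups of libraries with a mean of at least 1 CPM of a receptor, 6 held 1 library far from the rest, where chance flags about 1 in 20 groups. Library 22 had 11.3 CPM of Ccr1 among SUS Ly6C-low libraries, the next having 2.49 CPM. Library 20 had 448.0 CPM of Ccr2 among RES Ly6C-low libraries, the next having 289.9 CPM. Library 40 had 9.30 CPM of Ccr2 among RES B cell libraries, the next having 3.41 CPM. Library 47 had 91.2 CPM of Ccr6 among CON B cell libraries, the next having 77.5 CPM. In T cells library 61 had 465.4 CPM of Ccr7 among RES libraries, the next having 342.1 CPM, and library 68 had 31.3 CPM of Cx3cr1 among CON libraries, the next having 8.05 CPM.

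The libraries left out carried the receptors of the other lymphocyte type. Library 52, labelled as RES B cells, had 34.4 CPM of Ccr9 and 40.3 CPM of Cxcr3, where the B cell libraries used reached at most 7.24 and 1.87 CPM. Library 70, labelled as RES T cells, had 83.0 CPM of Ccr6 and 472.0 CPM of Cxcr5, where the T cell libraries used reached at most 13.3 and 39.4 CPM. For library 70 all 9 receptors lay within the range of B cells, and for library 52 8 of 9 within that of T cells, Ccr9 lying just under its 36.3 to 91.7 CPM.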

How the results depend on the processing

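The number of receptors called was within 1.5 times the main count in 156 of 162 alternatives and in 328 of 336 fits with 1 library left out. In Ly6C-high monocytes it went from 1 to 0 with the red cell covariate in SUS vs. CON and RES vs. CON mice, and with no count filter in RES vs. CON mice, where more genes were tested. The red cell covariate, which is higher in the stressed groups, took the genes called in SUS vs. CON mice from 585 to 4 and in RES vs. CON mice from 169 to 0, and moved the median of all genes by 0.11 in SUS vs. CON mice. Leaving out 1 library gave 0 to 1 in RES vs. CON mice, 0 for libraries 1, 7, 10, 13, 16, 9, 15 and 18, and 1 throughout in SUS vs. CON mice. Interactions of the RES vs. CON change rose from 0 to 1 with DESeq2 (Ccr6, Ly6C-high monocytes vs. T cells), and with libraries 52 and 70 kept to 3 against B cells and 1 against T cells. Between cell types, leaving out 1 library gave 4 to 6, 7 to 8, 6 to 7 and 6 to 8 called for Ly6C-high vs. Ly6C-low monocytes, Ly6C-high monocytes vs. B cells, and Ly6C-low monocytes vs. B and T cells, and the main counts of 7 and 8 for B vs. T cells and Ly6C-high monocytes vs. T cells. No called change turned its sign, and 136 of 2974 changes that were not called did. Keeping libraries 52 and 70 moved 10 mean levels of RES lymphocytes by more than 1 SD. Of 54 likeness values, 14 left the leading pair with another pseudocount. No paired analysis was possible because the labels give no replicate number shared between groups. What size of change 4 to 6 libraries per group can show for receptors near 1 CPM was not tested.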
